A study of Mus musculus with 3 samples.

Results

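The receptors described here are all mouse genes on the array whose symbols begin with Vmn1r, Vmn2r, Taar or Mrgpr, and they were chosen by symbol alone, without use of any signal. They comprised 288 genes and 325 probes of 20660 named genes and 55681 probes in all. The Vmn1r family gave 166 genes and 177 probes, the Vmn2r family 90 genes and 113 probes, the Taar family 14 genes and 15 probes, and the Mrgpr family 18 genes and 20 probes. RNA came from NIH3T3 cells, an established mouse fibroblast line labelled as wild type, grown to confluence with 10% fetal bovine serum and collected after 24 h. Cells were cultured without additions (None), with AR7 or with BMS614 at 20 μM, both ligands of the retinoic acid receptor RARα in the study, the second a selective antagonist. The compounds were dissolved in DMSO, and the labels do not say whether the untreated cells received DMSO. Each condition was measured on 1 one-colour Agilent array, so differences between conditions have no replicate behind them and were not tested.

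These families are G protein-coupled receptors of sensory cells. Vmn1r and Vmn2r receptors detect pheromones and other social cues in the vomeronasal organ, where Vmn1r neurons signal through Gnai2 and Vmn2r neurons through Gnao1, and Vmn2r receptors carry a long extracellular domain that binds peptides and proteins. Trace amine-associated receptors detect volatile amines in the olfactory epithelium, except Taar1, which is known from the brain. Mrgpr receptors are best known from itch and pain neurons and, for Mrgprb2, from mast cells. The labels name none of these cell types in the culture, and fibroblasts are not known to rely on these receptors.

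RefSeq start windows of build GRCm38.p6, each holding 250 bases before and 50 bases after the annotated start, were found for 256 of the 288 receptor genes. No window was given for Vmn1r132, Vmn1r178, Mrgpra3 or Mrgprf. Windows are printed 5′ to 3′ on the strand of the gene. The first shows Mrgpra2b (chr7:47489533-47489832, minus strand), the receptor with the largest measured AR7 difference, whose window was 100% identical to that of its neighbour Mrgpra2a (chr7:47452115-47452414, minus strand).
Mrgpra2b: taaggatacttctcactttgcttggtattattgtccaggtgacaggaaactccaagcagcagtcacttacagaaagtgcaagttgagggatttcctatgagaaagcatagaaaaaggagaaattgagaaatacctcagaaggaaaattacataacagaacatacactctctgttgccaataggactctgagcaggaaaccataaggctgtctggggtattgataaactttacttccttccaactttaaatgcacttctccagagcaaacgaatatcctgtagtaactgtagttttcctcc
The next pair is shown because Vmn1r131 (chr7:21546041-21546340, minus strand) and Vmn1r139 (chr7:22096617-22096916, plus strand) belong to the longest run of neighbouring receptors with bright probes. Capitals in Vmn1r131 mark an ATG at positions 251 to 253, the first bases of the annotated gene. Capitals in Vmn1r139 mark the 29 bases that differ from Vmn1r131 without gaps, an identity of 90.3%.
Vmn1r131: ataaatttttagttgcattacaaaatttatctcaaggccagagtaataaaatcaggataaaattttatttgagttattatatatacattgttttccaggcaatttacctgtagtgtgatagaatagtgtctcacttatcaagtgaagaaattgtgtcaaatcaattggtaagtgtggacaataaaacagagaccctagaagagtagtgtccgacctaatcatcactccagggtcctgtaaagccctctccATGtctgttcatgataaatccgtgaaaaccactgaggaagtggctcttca
Vmn1r139: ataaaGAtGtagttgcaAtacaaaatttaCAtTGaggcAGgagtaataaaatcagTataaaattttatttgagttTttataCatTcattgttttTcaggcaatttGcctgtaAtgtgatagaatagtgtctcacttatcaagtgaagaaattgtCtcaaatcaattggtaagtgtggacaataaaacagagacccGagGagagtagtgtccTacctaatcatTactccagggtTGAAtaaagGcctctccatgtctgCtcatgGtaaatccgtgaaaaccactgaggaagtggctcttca
Vmn1r118 (chr7:20912298-20912597, minus strand) had a window 100% identical to that of Vmn1r131, yet its probe was dim on every array. Vmn1r40 (chr6:89713953-89714252, plus strand) and Vmn1r85 (chr7:13085166-13085465, minus strand) are shown as the Vmn1r genes past 2-fold on probes measured with BMS614 and without additions. The same ATG is in capitals.
Vmn1r40: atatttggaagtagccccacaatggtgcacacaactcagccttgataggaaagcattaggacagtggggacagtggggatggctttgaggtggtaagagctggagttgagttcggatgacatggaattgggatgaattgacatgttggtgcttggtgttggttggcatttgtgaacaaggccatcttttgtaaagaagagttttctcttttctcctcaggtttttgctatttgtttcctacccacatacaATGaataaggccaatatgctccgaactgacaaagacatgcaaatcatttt
Vmn1r85: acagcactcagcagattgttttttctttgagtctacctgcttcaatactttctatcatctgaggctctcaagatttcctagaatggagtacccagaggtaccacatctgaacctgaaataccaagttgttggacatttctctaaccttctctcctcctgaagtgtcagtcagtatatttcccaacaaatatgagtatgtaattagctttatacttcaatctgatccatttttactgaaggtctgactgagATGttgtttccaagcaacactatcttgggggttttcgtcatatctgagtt
Mrgprg (chr7:143766944-143767243, minus strand) is shown as a bright receptor with the GC-box letters GGGCGG, in capitals, which were found in 3 receptor windows (Mrgprg, Taar6 and Taar9).
Mrgprg: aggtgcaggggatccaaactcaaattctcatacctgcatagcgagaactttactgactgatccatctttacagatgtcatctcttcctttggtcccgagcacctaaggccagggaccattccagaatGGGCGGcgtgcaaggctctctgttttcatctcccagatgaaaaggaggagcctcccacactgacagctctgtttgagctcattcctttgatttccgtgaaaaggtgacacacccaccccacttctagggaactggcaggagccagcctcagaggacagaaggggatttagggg

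The windows of the receptors had features in common that the choice by symbol did not use. An ATG stood at positions 251 to 253 in 206 of 256 receptor windows (80.5%), against 5.83% of all 32851 windows, so that most of these gene models begin at an ATG. The letters GGGCGG on either strand were in 1.17% of receptor windows and in 35.7% of all windows. TATAAA on either strand was in 34.4% and 13.6%. The median number of CG dinucleotides was 1 in receptor windows and 7 in all windows. The median GC content was 36.7% in receptor windows and 52.7% in all windows, and its part in the motif shares was not tested. AGGTCA, the core hexamer of response elements for nuclear receptors such as RARα, was found on either strand in 28 receptor windows (10.9%) and in 16.3% of all windows. The pair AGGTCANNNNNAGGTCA, which contains that hexamer, was in 0 receptor windows and in 3 of all windows. Of the 12 receptor genes at least 2-fold different in some comparison, 11 had a window, and 0 of these held AGGTCA. These letters are a description of this window only. Motif shares were near each other in windows of receptors whose brightest probe was well above background on 3 arrays (67 windows, AGGTCA in 11.9%, TATAAA in 34.3%) and on 0 arrays (147 windows, 11.6% and 31.3%), while the ATG was in 70.1% of the first and 83.7% of the second.

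Signals of most receptor probes lay near the background of the array. A probe was called well above background where most of its spots carried that mark of the scanner software. On this rule 82 of 325 receptor probes (25.2%) were well above background without additions, 113 (34.8%) with AR7 and 122 (37.5%) with BMS614. Over all probes the shares were 55.4%, 61.2% and 61.8%. The order of the arrays was thus the same over all probes as over the receptors. Odorant receptors (Olfr, 1160 probes), another sensory family, had 18.0%, 27.2% and 27.9%, and taste receptors (Tas1r and Tas2r, 40 probes) had 25.0%, 27.5% and 27.5%. The shares depended on the detection rule. Counting probes above the 99th percentile of the negative control spots, an intensity of 108.63 to 121.53, gave 68.3% of receptor probes without additions, 75.1% with AR7 and 71.4% with BMS614. The median raw intensity over the 325 probes was 116, 132 and 135.5 on the same arrays.

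By family, the Mrgpr receptors had 8 of 20 probes well above background without additions and 11 of 20 with either compound. The Vmn1r receptors had 50, 69 and 74 of 177 probes in the order None, AR7 and BMS614, and the Vmn2r receptors had 21, 30 and 34 of 113. The Taar receptors had 3 of 15 probes on every array.

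**Figure D1:**
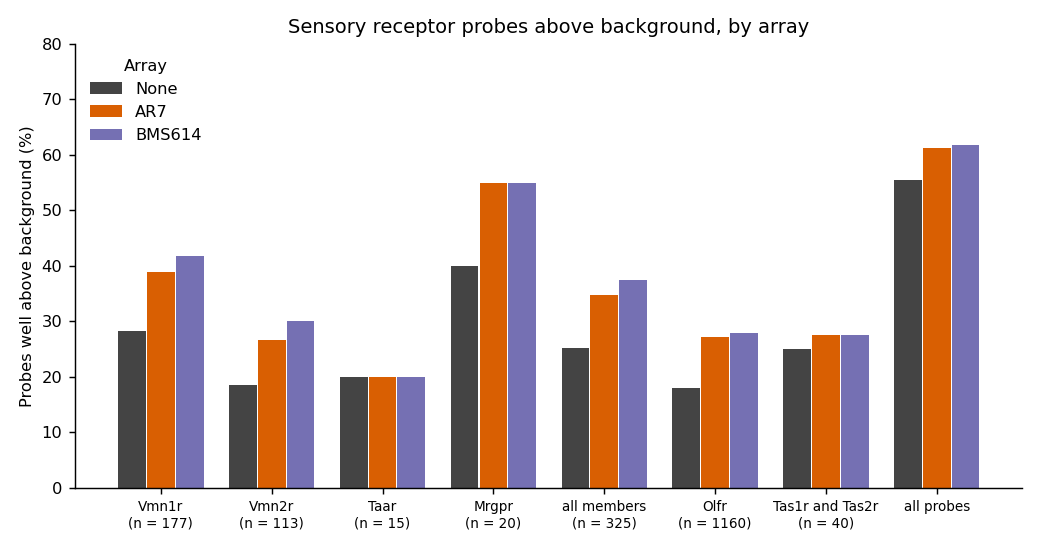
Percentage of probes well above background (vertical axis) on the array of untreated cells (None, grey), of AR7 (orange) and of BMS614 (violet), with 1 array per condition and hence no error bars; n is the number of probes. Every receptor family except Taar, at 20.0% on each array, had its lowest share on the None array, as did all probes.

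Across the 3 arrays, 78 receptor probes (24.0%) were well above background on each array and 194 (59.7%) on none, against 54.4% and 35.5% of all probes. The remaining 53 probes changed state between arrays. Of these, 28 (8.62% of receptor probes, against 4.55% of all probes) were well above background with AR7 and with BMS614 but not without additions. The median raw intensity of these 28 probes was 130 without additions, 156 with AR7 and 163 with BMS614, and the ranges were 112 to 143.5, 140 to 175 and 147 to 181.5. A further 14 probes were well above background with BMS614 alone, 7 with AR7 alone, 2 without additions alone and 2 on the BMS614 and None arrays. The lowest log2 signal of any probe well above background was 4.47 without additions, 3.45 with AR7 and 3.67 with BMS614. The arrays therefore differed in how dim a probe could be and still carry the mark, and the part of this in the 28 probes was not tested.

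Some receptor probes were bright on every array. Of 325 probes, 20 had a mean log2 signal of 8 or more, and 17 of them belonged to Vmn1r genes. The brightest was the Vmn1r132 probe, at 11.19 without additions, 11.34 with AR7 and 11.29 with BMS614. The Vmn1r178 probe read 10.68, 10.80 and 10.77, and the Vmn1r65 probe 10.80, 10.80 and 10.55, in the same order. In the 20 bright probes, AR7 minus None ran from -0.23 to 0.17 (median 0.05) and BMS614 minus None from -0.38 to 0.20 (median 0.02). None of the 20 reached 2-fold in any comparison. Brightness of different probes does not give the order of RNA levels, because each probe binds its target with its own strength.

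**Figure D2:**
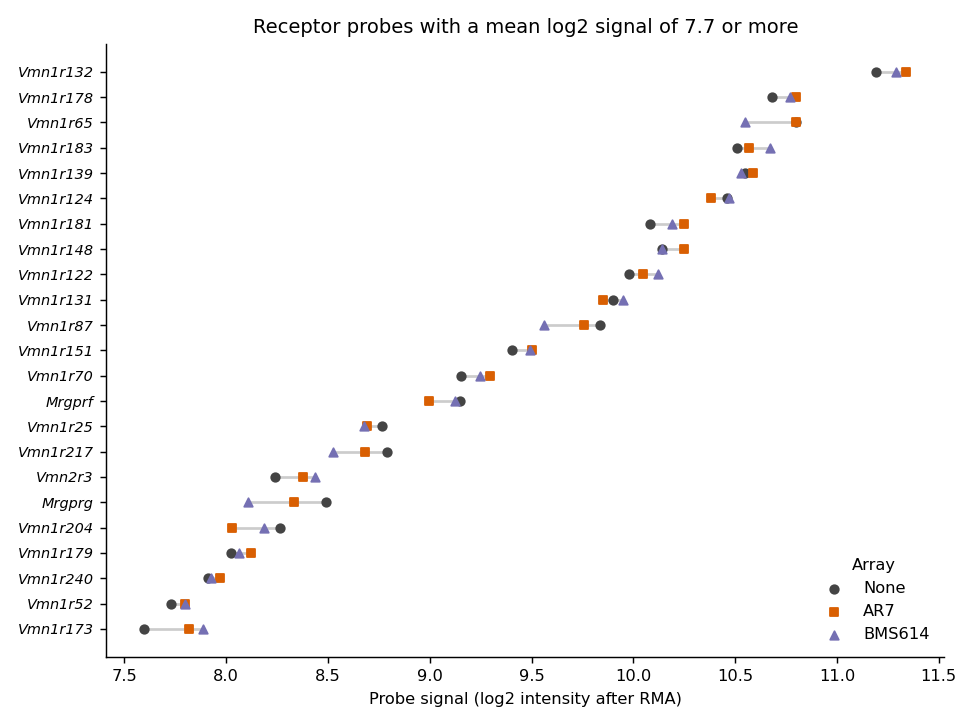
Log2 signal (horizontal axis) of the receptor probes with a mean of 7.7 or more, with 1 point per array: None (grey circles), AR7 (orange squares) and BMS614 (violet triangles). The points of a probe lie close together, from Vmn1r132 at 11.19 to 11.34 downward, and the widest gap between None and a compound among probes at 8 or more is that of Mrgprg, 0.38 lower with BMS614.

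Several bright receptor probes belonged to neighbouring genes. In the gene order of the annotation, the longest run of neighbouring receptors whose probes were all well above background on 3 arrays held 7 genes: Vmn1r122, Vmn1r124, Vmn1r131, Vmn1r132, Vmn1r139, Vmn1r148 and Vmn1r151. Only receptors with a probe were ordered, each by its brightest probe, and other genes may lie between them. Mean log2 signals over the arrays were 9.47 to 11.28 in this run. AR7 minus None ranged from -0.08 to 0.15 over the 7 probes and BMS614 minus None from -0.02 to 0.14. Start windows of 5 of these genes (Vmn1r122, Vmn1r124, Vmn1r131, Vmn1r139 and Vmn1r151) were 87.7% to 98.7% identical to each other by global alignment, whereas that of Vmn1r148 was 48.3% to 49.6% identical to theirs.

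Start windows were aligned only among some Vmn1r genes and between Mrgpra2a and Mrgpra2b, and 2 of the aligned pairs were identical. Mrgpra2a and Mrgpra2b were both well above background on all arrays, and the pair of Vmn1r131 and Vmn1r118 differed in detection. The Vmn1r131 probe read 9.90 without additions, 9.85 with AR7 and 9.95 with BMS614. The Vmn1r118 probe, whose gene has the window printed for Vmn1r131, read 3.80, 3.97 and 4.0 and was well above background on 0 arrays. Genes this alike can bind the same probe. Which copies a probe binds was not tested, because no probe sequences were used here, and a signal printed for one Vmn1r gene may include RNA of another.

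Shorter runs were found too. A run of 4 held the orphan receptors Mrgprg, Mrgpre and Mrgprf and the β-alanine receptor Mrgprd, and another run of 4 held Vmn1r42, Vmn1r43, Vmn1r44 and Vmn1r45. Runs of 3 held Mrgpra2a, Mrgpra2b and Mrgpra3, then Vmn1r87, Vmn1r89 and Vmn1r240, then Vmn2r11, Vmn2r12 and Vmn2r13.

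Probes for the same receptor often differed in detection. Of 34 receptor genes with several probes, 10 had a probe well above background on 3 arrays and another on 0 arrays. In 11 genes all probes were on 0 arrays and in 2 genes (Vmn1r217 and Vmn2r121) all were on 3. The widest gap was that of Vmn1r183, where the brightest probe read 10.51 without additions, 10.57 with AR7 and 10.67 with BMS614, and the dimmest read 3.19, 3.76 and 3.20. Gaps of mean signal were 6.92 for Vmn1r181 and 6.0 for Vmn1r178. The median gap over the 34 genes was 1.13. A gene is therefore counted here by probe, and a signal speaks for the sequence of its probe rather than for the whole gene.

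**Figure D3:**
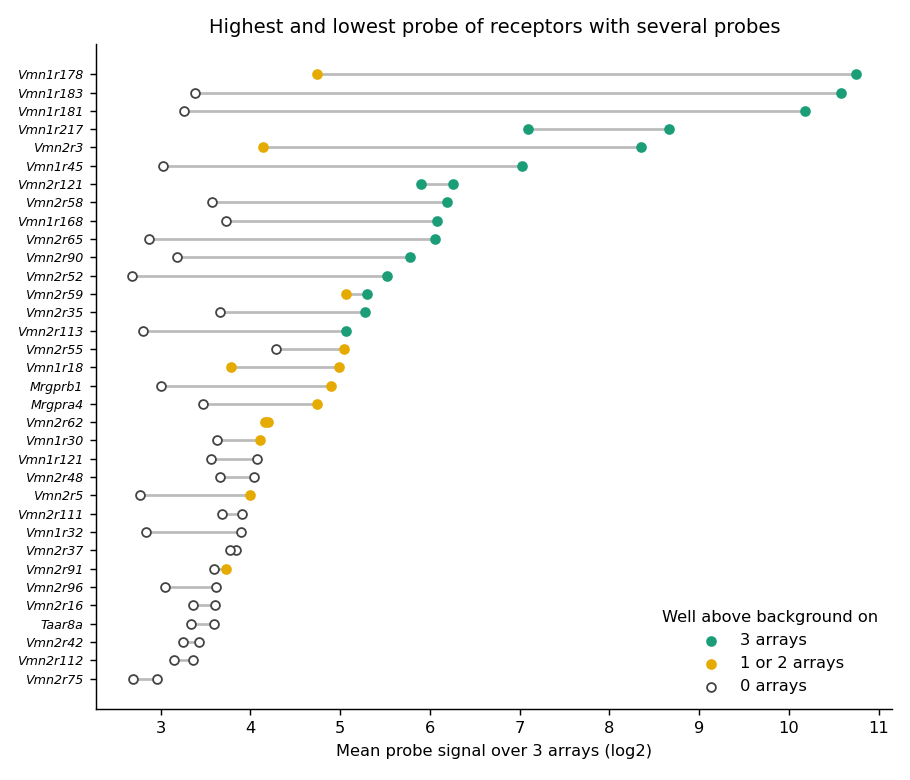
Mean log2 signal over 3 arrays (horizontal axis) of the highest and the lowest probe of the 34 receptor genes with several probes, joined by a line. Green marks probes well above background on 3 arrays, yellow on 1 or 2 arrays and open circles on 0 arrays; 10 genes join a green to an open circle, and the longest line is that of Vmn1r183 (7.20).

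Cells treated with AR7 had few receptor probes past 2-fold. A difference was measured where a probe was well above background on both arrays. Where it was so on 1 array, the difference was a bound, set against the probe's own signal on the dim array or the lowest signal well above background there, whichever was higher. Of 110 receptor probes with either value, 4 (3.64%) were at least 2-fold different between AR7 and None, against 1.63% of all probes (0.600% higher and 1.03% lower) and 3.43% of probes with a mean log2 signal under 8. Of all receptor probes, 305 of 325 lay under 8, and so did these 4. The 110 also hold 20 probes at 8 or more, so the receptor share over probes under 8 alone is higher than 3.64%. The same limit holds for the receptor shares of the comparisons below. Only 1 of the 4 was measured on both arrays.

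That receptor was Mrgpra2b, a neighbour of the itch receptor gene Mrgpra3. Its probe read 6.35 without additions, 7.90 with AR7 and 7.15 with BMS614, with raw intensities of 181, 362 and 294. It was 2.93-fold higher with AR7 than without additions (log2 difference 1.55), 8.08 times the SD of differences between repeated spots at this signal (0.19). With BMS614 the log2 difference was 0.80, or 1.74-fold. The Mrgpra2a probe, for the gene with the identical start window, read 6.68, 6.89 and 7.09, with differences of 0.21 for AR7 and 0.41 for BMS614.

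The other 3 probes rested on bounds. A second Vmn2r59 probe read 4.58 without additions, where it was dim, 5.58 with AR7 and 5.03 with BMS614, and was at least 2.0-fold higher with AR7. The first Vmn2r59 probe, measured on 3 arrays, read 4.96, 5.46 and 5.49. The Vmn1r85 probe read 6.22 without additions, 3.88 with AR7, where it was dim, and 4.92 with BMS614, and was at least 5.06-fold lower with AR7. A Vmn2r62 probe read 4.92, 3.54 and 4.12 and was at least 2.62-fold lower with AR7, while the second Vmn2r62 probe read 4.28, 4.37 and 3.84 and gave no fold. In Vmn2r59 and Vmn2r62 alike, the other probe of the gene was not past 2-fold.

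In cells treated with BMS614, 5 of 110 receptor probes (4.55%) were at least 2-fold different from None, against 1.82% of all probes (0.719% higher and 1.10% lower) and 3.83% of probes under 8. Measured on both arrays were Vmn1r40, Mrgpra3 and Vmn1r85. The Vmn1r40 probe read 4.96 without additions, 4.82 with AR7 and 6.60 with BMS614, which was 3.12-fold higher than None (log2 difference 1.64, repeated-spot SD 0.36). The raw intensities were 138, 154 and 243, so the BMS614 array alone was high. The Mrgpra3 probe, for the chloroquine receptor of itch neurons, read 5.59, 5.95 and 6.72. It was 2.19-fold higher with BMS614 (log2 difference 1.13, repeated-spot SD 0.17), and its AR7 difference was 0.36. The Vmn1r85 probe was 2.45-fold lower with BMS614 and, as given above, lower by bound with AR7, so the None array was the highest.

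By bound, the second Vmn2r3 probe read 3.21 without additions and 3.26 with AR7, dim on both, and 5.97 with BMS614, at least 2.81-fold above None. The first Vmn2r3 probe read 8.24, 8.38 and 8.44. A Vmn1r24 probe read 4.92 without additions and 3.88 with BMS614, at least 2.06-fold lower, with a smaller bound for AR7 (-0.53 on the log2 scale).

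Below 2-fold, the next largest bounds were spread over several families. For AR7 they were 0.84 for Vmn2r60, 0.77 for Mrgprb1, 0.75 for Vmn1r101 and 0.71 for Vmn1r185, all higher than None. Lower than None were Vmn1r24 at -0.53, as given above, and Vmn1r209 at -0.49. For BMS614 they were 0.82 for Vmn1r33, 0.80 for Vmn1r54, 0.71 for Vmn2r77 and 0.69 for Vmn1r185, and -0.80 for Vmn2r62. The Vmn1r185 probe read 4.28 without additions, 5.19 with AR7 and 5.16 with BMS614.

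**Figure D4:**
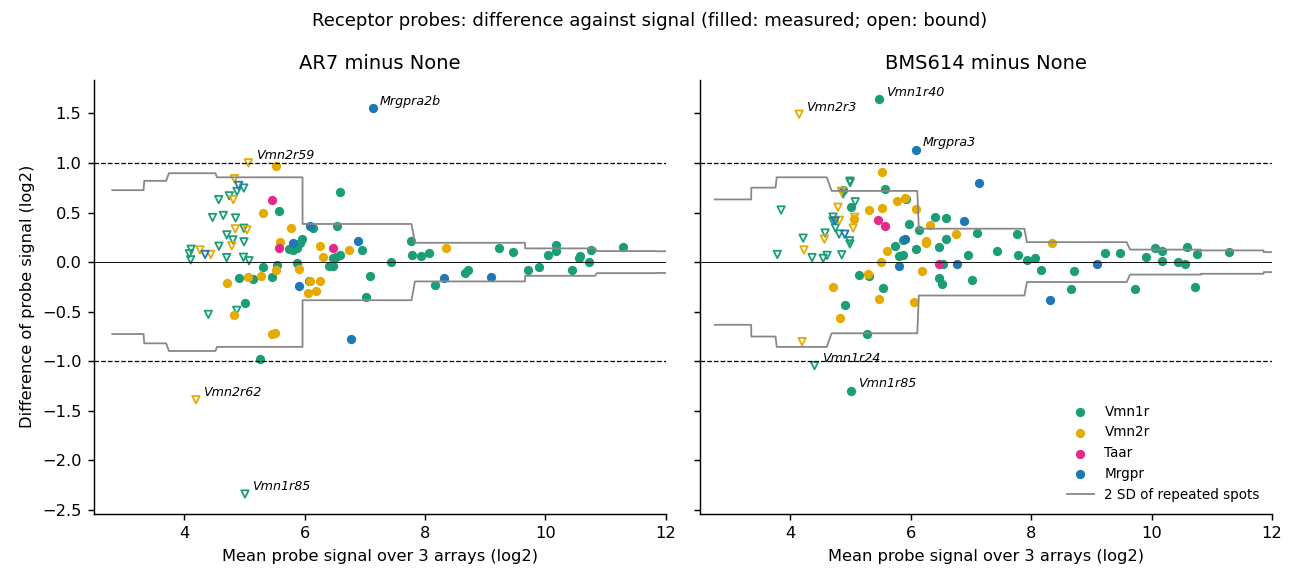
Log2 difference from None (vertical axis) against the mean log2 signal over 3 arrays (horizontal axis) for 110 receptor probes per panel, AR7 at left and BMS614 at right; filled circles are measured differences, open triangles are bounds, dashed lines mark 2-fold and grey steps mark 2 SD of differences between repeated spots. Named probes are those past 2-fold, all of them with a mean signal below 8, and Mrgpra2b at 1.55 lies farthest above the grey steps in the AR7 panel.

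Between the compounds, 7 of 128 receptor probes (5.47%) were at least 2-fold different, against 1.66% of all probes and 3.25% of probes under 8. All 7 were lower with AR7 than with BMS614, and 0 were higher, whereas over all probes 0.840% were lower and 0.823% higher. Only Vmn1r40 was measured on both arrays (3.45-fold lower with AR7), and the other 6 (Vmn2r3, Vmn1r198, Vmn1r209, Vmn1r18, Vmn2r61 and Vmn1r85) were bounds, each dim with AR7. Their log2 signals were 3.0 to 4.30 with AR7 and 4.55 to 5.97 with BMS614.

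The bounds depended on the dimmest signal allowed on each array. Where the 1st percentile of probes well above background (4.82 without additions, 4.30 with AR7 and 4.29 with BMS614) replaced the lowest of them, a choice made after seeing the data, 2 receptor probes were past 2-fold for AR7 (Mrgpra2b and Vmn1r85), 4 for BMS614 (Vmn1r40, Mrgpra3, Vmn1r85 and Vmn2r3) and 3 between the compounds (Vmn1r40, Vmn1r209 and Vmn2r3). These were 2%, 3.96% and 2.44% of 100, 101 and 123 receptor probes compared, against 1.26%, 1.37% and 0.955% of all probes. Among the probes marked on every array, 1 of 78 was past 2-fold for AR7, 2 of 78 for BMS614 and 1 of 78 between the compounds, against 0.641%, 0.749% and 0.459% of all such probes. With normexp background correction and an offset of 50, 0 receptor probes reached 2-fold in any comparison, and Mrgpra2b was at 0.98 on the log2 scale for AR7. In the deposited table, taken without bounds, Mrgpra2b was at 1.36 for AR7 and Vmn1r40 at 1.13 for BMS614. Mrgpra3 was at 0.94 and Vmn1r85 at -0.53 for BMS614 there, under 2-fold, and Vmn1r85 was at -1.07 for AR7.

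Over all probes the share past 2-fold fell as signal rose. The receptor counts were 0 to 3 in each range of signal. They showed no steady course for AR7 or BMS614 against None. Between the compounds the receptor share fell as signal rose, from 13.6% under 4.5 to 0 at 6 to 8. For AR7, 1 of 9 receptor probes with a mean log2 signal under 4.5 was past 2-fold (13.3% of all probes), 0 of 22 at 4.5 to 5 (6.35%), 2 of 31 at 5 to 6 (4.28%) and 1 of 28 at 6 to 8 (0.517%). For BMS614 these counts were 2 of 8 (14.6%), 0 of 23 (7.05%), 2 of 31 (4.57%) and 1 of 28 (0.742%). Between the compounds they were 3 of 22 (9.74%), 2 of 27 (5.76%), 2 of 31 (2.25%) and 0 of 28 (0.490%). Of 20 receptor probes at 8 or more, 0 were past 2-fold in each of the comparisons, against 0.0282%, 0.0395% and 0.0621% of all probes. At 1.5-fold, 18 of 110 receptor probes (16.4%) were past the line for AR7, 19 of 110 (17.3%) for BMS614 and 29 of 128 (22.7%) between the compounds. The shares were 6.47%, 7.19% and 7.41% of all probes, and 13.5%, 14.7% and 14.2% of probes with a mean log2 signal under 8. The receptor probes compared include the 20 at 8 or more, so these last shares are over a narrower range of signal.

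**Figure D5:**
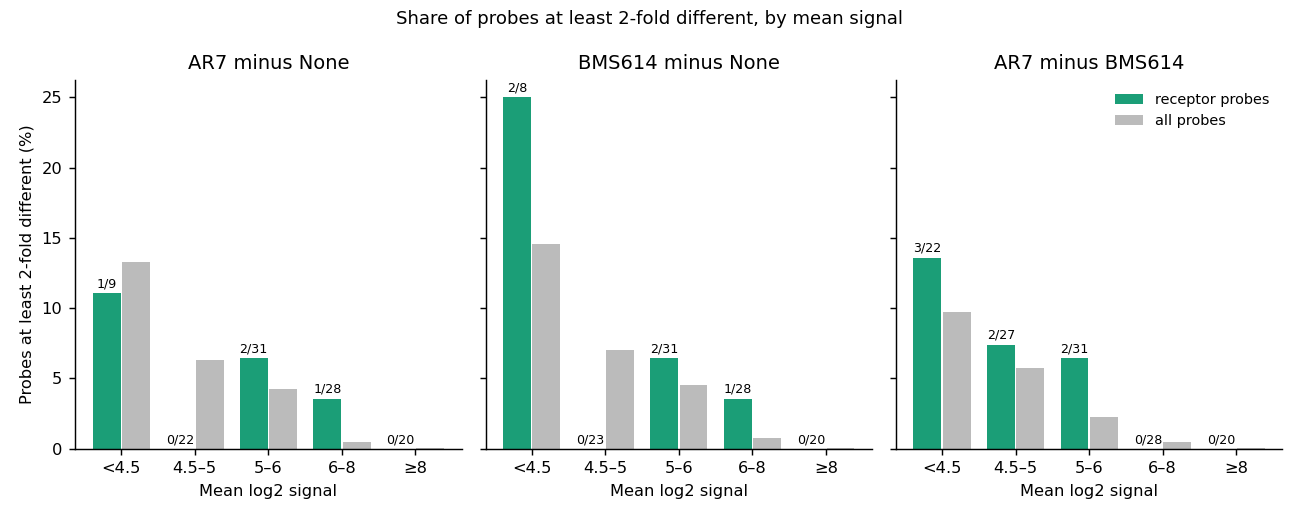
Percentage of probes at least 2-fold different (vertical axis), by mean log2 signal over 3 arrays (horizontal axis), for receptor probes (green, with the count past 2-fold over the count compared) and all probes (grey), in 3 panels for AR7 minus None, BMS614 minus None and AR7 minus BMS614. In each panel the grey bars fall as signal rises, and the receptor probes at 8 or more have 0 of 20 past 2-fold.

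Over the 78 receptor probes measured on 3 arrays, the median log2 difference was 0.04 for AR7 and 0.10 for BMS614, against -0.01 for both over all such probes, and 43 and 51 of the 78 were above 0. Both comparisons share the None array. By family the medians for AR7 and BMS614 were 0.05 and 0.07 in 47 Vmn1r probes, -0.11 and 0.20 in 20 Vmn2r probes, 0.14 and 0.37 in 3 Taar probes and 0.02 and 0.11 in 8 Mrgpr probes. Differences past 2 SD of repeated spots numbered 8 of 78 for AR7 (10.3%, against 17.3% of all such probes) and 17 of 78 for BMS614 (21.8%, against 25.0%).

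Of 14 receptors named for their known role or family, 6 were well above background on all 3 arrays, 1 on 2 arrays and 7 on 0 arrays. Mrgprf, an orphan receptor, was the brightest Mrgpr probe at 9.15 without additions, 8.99 with AR7 and 9.12 with BMS614. Mrgprg, also an orphan, read 8.49, 8.33 and 8.11, the BMS614 difference of -0.38 being 3.82 times the repeated-spot SD. Mrgprd read 5.91, 5.67 and 6.14, and the orphan Mrgpre read 5.76, 5.95 and 5.72, neither with a difference from None past 2 SD of repeated spots. Mrgprb4, known from touch-sensitive C fibres and named after its values were seen, read 7.04, 6.26 and 7.02, so that the AR7 array was the low one (log2 difference -0.78, repeated-spot SD 0.19). Mrgprh was dim without additions (4.04) and well above background at 4.55 with AR7 and 4.44 with BMS614. Mrgprb2, the mast cell receptor for basic secretagogues, read 3.19, 3.22 and 3.83 and was dim on every array, as were Mrgprx1 at 3.68 to 4.0 and Mrgprx2 at 2.88 to 3.70.

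Of the amine receptors, Taar5, which detects trimethylamine, read 5.41 without additions, 5.55 with AR7 and 5.78 with BMS614. Taar4, which detects phenylethylamine, read 5.10, 5.73 and 5.53, and Taar7f read 6.43, 6.57 and 6.41. None of these Taar differences from None was past 2 SD of repeated spots. Taar1 was dim at 3.31 to 3.65. Of the Vmn2r receptors, the brightest after Vmn2r3 were Vmn2r4 at 6.61, 6.73 and 6.89 and Vmn2r11 at 6.17, 6.22 and 6.55. Vmn2r26, Vmn2r116 (the receptor of the tear peptide ESP1) and Vmn2r1 (a partner that many Vmn2r neurons express) were dim on every array, between 2.84 and 3.72.

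Receptor probes printed 10 times show the error of a single spot at these levels. The Vmn1r81 probe gave 4.45 ± 0.41 (SD over 10 spots) without additions, 4.75 ± 0.14 (8 spots) with AR7 and 4.93 ± 0.44 (10 spots) with BMS614. Of its 10 printed spots, outlier-marked ones included, 2, 8 and 10 were well above background in the same order. Over the 10 spot positions, BMS614 minus None was 0.48 ± 0.57 (SD), from -0.41 to 1.25, and 3 of 10 single spots were past 2-fold though their mean was not. The Vmn1r58 probe gave 0.17 ± 0.26 for BMS614 and 0.10 ± 0.47 for AR7 over 8 spots each. The Vmn1r233 probe, dim in all spots, gave 1 of 10 single spots past 2-fold for AR7 around a mean of 0.11 ± 0.37. Repeated spots lie on the same array and carry the same RNA, so these SDs leave out the variation between cultures. All other receptor probes were read from 1 spot per array.

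Markers of other cells were compared with the label. Of 19 fibroblast markers, 17 were well above background on all arrays and Fap and Postn on none. Of 17 markers of vomeronasal and olfactory neurons with a probe, 10 were well above background on all arrays, among them Gnai2 and Gnao1, the G proteins of vomeronasal neurons, and Omp at 7.44, 7.31 and 7.30, while Rtp1, Lhx2, Gng13, Stoml3 and Cnga4 were dim on every array. Of 15 itch and pain neuron markers, 7 were well above background on all arrays, and Scn10a, Tac1 and Ret were among those on none. Of 9 mast cell markers, 6 (Mcpt4, Cpa3, Cma1, Fcer1a, Ms4a2 and Kit) were on none. Of 12 general G protein partners of such receptors, 10 were well above background on all arrays, and Plcb1 and Gnai1 on none. The summed raw intensity of the neuron markers was 37700 without additions, 41060 with AR7 and 43140 with BMS614 for vomeronasal and olfactory neurons, and 3671, 4251 and 4874 for itch and pain neurons. For mast cells it was 1646, 1795 and 1968, and for fibroblasts 974600, 1024000 and 1237000, the order of the raw brightness of the arrays. The summed intensity of the vomeronasal and olfactory list was mostly that of Gnai2. Its log2 signal was 15.22 without additions, 15.2 with AR7 and 15.01 with BMS614, and the next brightest, Gnao1, read 9.57, 9.57 and 9.41. After normalization the measured markers of vomeronasal and olfactory neurons had median log2 differences of -0.10 for AR7 and -0.16 for BMS614, those of itch and pain neurons -0.02 and -0.08, those of mast cells -0.20 and -0.06 and those of fibroblasts -0.07 and 0.04. No gene of any of these 5 lists reached 2-fold in any comparison. In the G protein list AR7 differences ran from -0.59 (Plcb4) to 0.48 (Plcb2) and BMS614 differences from -0.51 (Plcb4) to 0.18 (Plcb2). In a bulk culture, fewer cells with a transcript and less of it per cell cannot be told apart.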

How the data were processed

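Total RNA was labelled with Cy3 and hybridized to one-colour Agilent mouse 8x60K arrays, 1 per condition, all on one slide. The authors deposited the intensity of each spot from Feature Extraction 10.7.3.1, with the arrays not yet normalized to each other, and a linear table of processed intensities per probe. The methods name RMA with the oligo package. Here RMA was rebuilt from the median spot intensity of the deposited files: convolution background per array, quantile normalization over the 3 arrays analysed, log2, and averaging of the spots of a probe, without controls and outlier-marked spots (R 4.3.3, limma 3.58.1, Python 3.11.15, numpy 2.4.6, pandas 2.3.3, Biopython 1.88). The 75th percentile of raw intensity was 692 (None), 780.5 (AR7) and 909 (BMS614). No receptor spot was saturated, and the number of arrays limits the precision.

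Symbols came from RefSeq accessions looked up in a GRCm38.p6 gene table, which named 27235 of 55681 probes. Its coordinates served to order the receptors and are not printed. Start windows are from RefSeq. The repeated-spot SD is that of log2 differences over the spots of the 399 probes printed 10 times, in 10 bins of signal.

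The members follow from their symbols alone, but the families, lists and comparisons were chosen with earlier results of these data known. Named were receptors past 2-fold on probes measured on 3 arrays, the 5 largest rises and falls by bound, the 3 brightest of each family and 14 receptors of known role; Mrgpra2a, Mrgprb4, Vmn1r118, the genes of the neighbour runs and of the probe comparison, and those of the comparison between compounds were named after their values were seen. Alternatives were other background corrections, scalings, folds, filters and floors. Arrays of CA39 and CA77 were not analysed here, and not every gene of the marker lists is reported here by name.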

Additional observations from a re-analysis of the deposited data

How the results depend on the processing

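The counts of receptor probes at least 2-fold different were 4 for AR7 minus None, 5 for BMS614 minus None and 7 for AR7 minus BMS614. In that order they were 0, 0 and 0 with normexp background correction (0.0827%, 0.0501% and 0.0787% of all probes). They were 1, 1 and 1 with the deposited table, values below 16 set to 16 (0.285%, 0.310% and 0.332% of all probes). They were 18, 19 and 29 at 1.5-fold and 1, 1 and 2 at 3-fold (0.489%, 0.405% and 0.399% of all probes at 3-fold). They were 1, 2 and 1 over probes marked on every array. Without a filter on dim probes they were 7, 13 and 10, or 2.15%, 4% and 3.08% of receptor probes. The shares of all probes were then 2.56%, 2.43% and 1.41%, so for AR7 the receptor share was the lower. With the scanner-processed signal scaled to its 75th percentile the counts were 4, 3 and 2 (0.845%, 1.06% and 0.649% of all probes). With RMA background and 75th percentile scaling they were 5, 6 and 8 (1.56%, 1.91% and 1.66% of all probes). With the added requirement of 2 SD of repeated spots they were 4, 5 and 7 (1.63%, 1.82% and 1.66% of all probes). With bounds against the 1st percentile of probes well above background they were 2, 4 and 3 (1.26%, 1.37% and 0.955% of all probes). The last pair of alternatives, and the negative control percentile, were chosen after seeing the data. The share of receptor probes detected rose from 34.8% to 72.6% (AR7), from 37.5% to 71.7% (BMS614) and from 25.2% to 59.7% (None) where positive and significant against the local background was the rule, and to 75.1%, 71.4% and 68.3% against negative controls. Normexp with an offset compresses dim signals by construction, while the fixed floor of the deposited table acts only on values below 16. The cause of the changes in these counts was not tested.

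The median difference over receptor probes ran from 0.02 to 0.12 for AR7 and from 0.07 to 0.16 for BMS614. For AR7 minus BMS614 it ran from -0.09 to 0.01, above 0 only without a filter on dim probes. Of 340 values of named receptors under the 4 other processings, taken there as plain differences without bounds, 287 moved by less than the repeated-spot SD, 53 moved by more and 0 values past 2-fold changed sign. Of the 16 values past 2-fold, 13 were followed (not those of Vmn1r198, Vmn1r18 and Vmn2r61). Of these 13, 10 stayed past it with the scanner-processed signal, 13 with RMA background and 75th percentile scaling, 7 in the deposited table and 0 with normexp. An alternative on the mean pixel intensity was not run. The deposited table has medians of 64.95 (None), 70.68 (AR7) and 67.45 (BMS614). Its scale is linear and its direction follows the background-subtracted intensity of each array, but how its columns were centred and scaled to each other is unknown. No paired analysis was possible because there is a single array for each condition. With 1 array per condition nothing here separates a treatment from its array, and dim signal limits most of these receptors.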
